A study of Mus musculus with 109 samples.

Results

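The Wnt pathway genes described here are 39 named members of the canonical Wnt and beta-catenin route, measured in lungs of mice that breathed cigarette smoke or filtered air for months. Members were found by the gene symbol that the array platform gives each probe, and a probe was kept where its detection p-value, the chance of such a brightness from background alone, was below 0.01 on at least 6 arrays. Of the 39 members, 36 had a probe in the files used here and 30 had at least 1 kept probe, among 11346 genes or unnamed probes tested in all. Wnt11, Znrf3, Dvl2, Dvl3, Csnk1a1 and Myc had a probe but none was kept, and Fzd5, Lgr4 and Axin1 are not analysed here. The 30 genes that passed the filter are thus not all members.

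Wnt ligands are secreted lipid-bearing proteins that are made ready for secretion by the acyltransferase Porcn. On the receiving cell they bind a Frizzled receptor together with Lrp5 or Lrp6. Without a ligand, a destruction complex of Axin, Apc, Gsk3b and casein kinase 1 marks beta-catenin, the product of Ctnnb1, for ubiquitination by the Btrc ligase and for breakdown. With a ligand, Dishevelled proteins hold that complex off, beta-catenin enters the nucleus, and Lef1, Tcf7l1 and Tcf7l2 use it to switch on targets such as Axin2, which feeds back on the pathway. In the lung the route is known for its part in budding of the embryonic airways and for upkeep of alveolar type 2 cells in the adult.

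The series holds single-colour Illumina bead arrays of total RNA from lung tissue in 8 groups. Wild-type C57BL6 mice gave 22 air and 28 smoke arrays, Fam13a-/- mice 6 and 13, Hhip+/- mice 12 and 14, and wild-type NZWLacJ mice 8 and 6. Fam13a and Hhip are genes near which human variants are associated with chronic obstructive pulmonary disease. Smoke, main-stream and side-stream mixed from research cigarettes, was given on 5 days a week for 6 months. The Fam13a-/- and Hhip+/- arrays carry the C57BL6 strain label, and no label gives the age or sex of the mice, how the alleles were made, or whether arrays came from separate animals; p-values therefore measure the spread between these samples. The titles of the NZWLacJ arrays name C57, and the strain label was used.

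Values are normalized signals on the log2 scale, and SE is the standard error of a difference. A gene is said to have risen or fallen where limma's p-value, adjusted by Benjamini-Hochberg over all 11346 genes, was below 0.05. Array medians of the deposited intensity ran from 66.1 to 144.5, and the share of probes detected ran from 36% to 53.9%. A total of 27 arrays stood apart from 80 others along the main axis of variation left within groups, and each of the 8 groups held some of both. In air and smoke the 27 comprised 6 and 8 wild-type C57BL6 and 1 and 4 Fam13a-/- arrays. Hhip+/- lung gave 2 and 2 of them, and NZWLacJ lung 3 and 1. Comparisons within the 27 therefore rest on few arrays. An NZWLacJ air array and an NZWLacJ smoke array lay with the C57BL6 arrays over the 50 genes that separate the strains best, so the strain of both is in doubt. Named differences between NZWLacJ and C57BL6 are mostly given with and without these doubtful arrays. The NZWLacJ group means and the comparison of NZWLacJ smoke with air include them. Without them 2.54% of all genes passed in that comparison, against 0.987% with them.

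The probes of the engineered genes were read first. Fam13a had a mean of 6.07 ± 0.69 (SD, n = 28) in wild-type smoke and 5.44 ± 0.50 (SD, n = 13) in Fam13a-/- smoke, a difference of -0.64 ± 0.26 (SE) that did not pass (adjusted p = 0.146). It was still above background on 7 of those 13 knockout arrays, and the probe's place relative to the deleted part of the gene is unknown here, so it is a weak check of the label. Hhip in Hhip+/- lung differed from wild type by -0.04 ± 0.14 (SE) in air (95% interval -0.32 to 0.24) and -0.03 ± 0.13 (SE, 95% interval -0.28 to 0.23) under smoke, which did not pass either. This probe does not bear out the heterozygous label, and its place relative to the altered part of the gene is also unknown here, so Hhip+/- names the arrays so labelled throughout. In Fam13a-/- lung Hhip was lower than in wild type under smoke, by -0.46 ± 0.13 (SE, adjusted p = 0.0191). Defining markers of lung were bright on all groups: the lowest value was 13.23 for Sftpc (type 2 cells), 14.88 for Scgb1a1 (club cells) and 13.14 for Ager (type 1 cells). Because whole lung was profiled, fewer cells of a type and less RNA per cell cannot be told apart in any result below.

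In Fam13a-/- lung against C57BL6 wild type, members passed the threshold under smoke and none did in air. Under smoke, 3 of the 30 tested members were lower, namely the feedback gene Axin2, the receptor Fzd7 and the nuclear factor Tcf7l2, and Porcn was higher. That is 13.3% of the tested members, beside 6.19% of all genes tested in this comparison (3.73% higher and 2.46% lower). In air, 0 of the 30 members and 0% of all genes passed, while 3 members, Wnt3a, Wnt5a and Sfrp1, had an unadjusted p below 0.05, beside 6.1% of all genes. The median difference of the members was -0.10 under smoke and -0.03 in air, beside -0.02 and 0.01 for all genes. Without the 27 arrays that stood apart, 3 members passed under smoke (Axin2, Fzd7 and Dkk3), and within those 27 arrays alone 3 others passed (Fzd4, Sfrp2 and Wnt7b), beside 3.78% and 13.4% of all genes. Sfrp2 was above background on 0 of 13 knockout and 2 of 28 wild-type smoke arrays, so its call compares values at background. With arrays scaled to equal medians in place of quantile normalization, only Axin2 passed under smoke (0 higher and 1 lower, adjusted p = 0.0216), beside 1.45% of all genes, and all genes then shifted by a median of -0.09. The plot of differences for each member shows both exposures side by side.

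**Figure D1:**
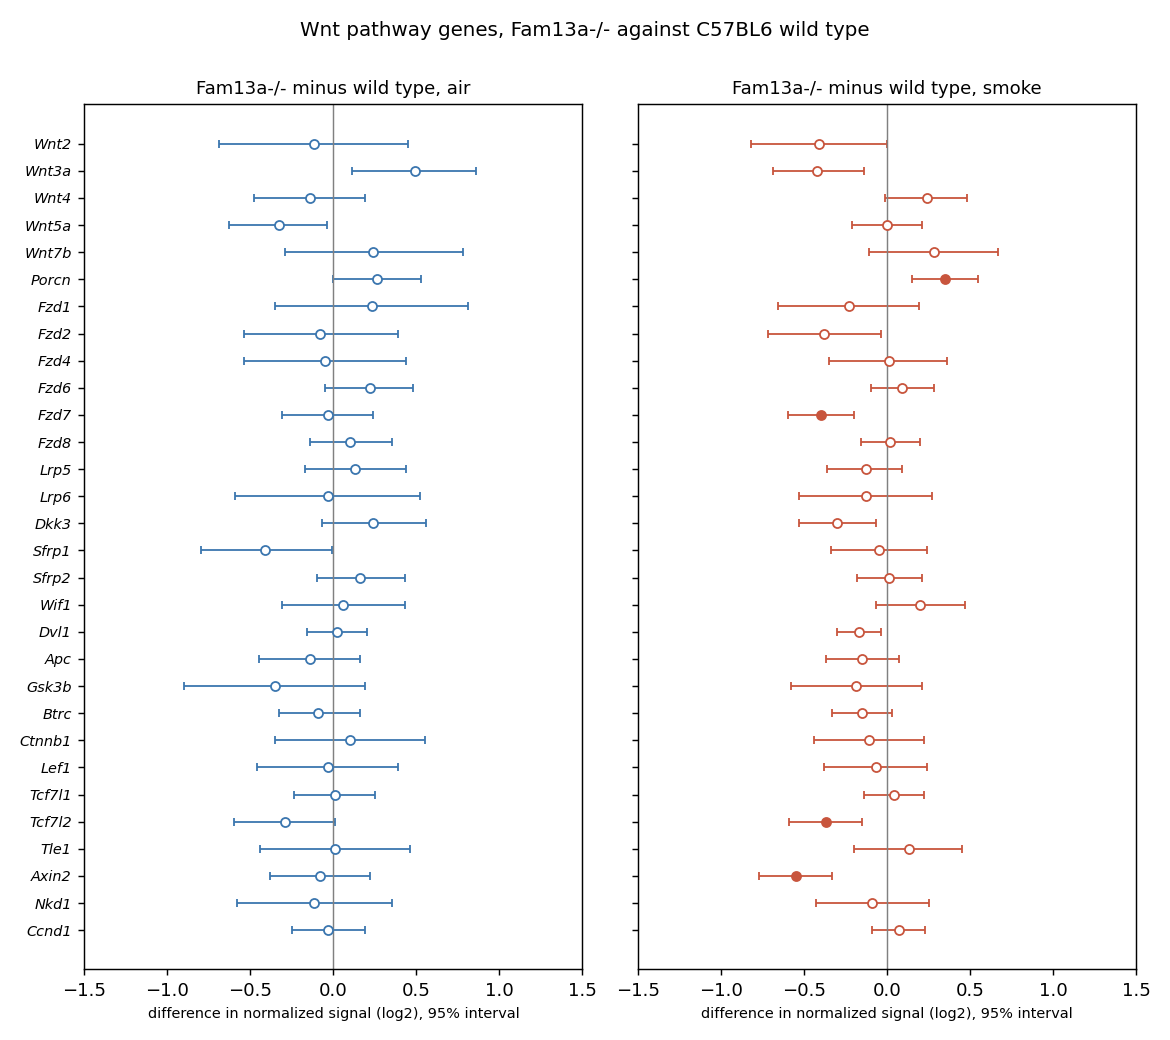
Difference in normalized signal (log2) between Fam13a-/- and C57BL6 wild type for the 30 tested members, ordered by role, in air (left, 6 against 22 arrays) and under smoke (right, 13 against 28 arrays). Points are differences, bars are 95% intervals, and filled points passed the adjusted threshold: none in air, and Porcn, Fzd7, Tcf7l2 and Axin2 under smoke, from -0.55 to 0.35.

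The promoter windows of the 3 members that fell together are shown because they lie directly before the annotated starts of their RNA. Each window holds the 250 bases before a transcription start in RefSeq annotation (GRCm38.p6), 5′ to 3′ on the plus strand, in lower case with capitals marking the core motif CTTTG or its reverse complement CAAAG, which TCF and LEF proteins are known to bind. Axin2 lies on chromosome 11, Fzd7 on chromosome 1 and Tcf7l2, with a second, downstream start, on chromosome 19.
Axin2, chr11:108920099-108920348: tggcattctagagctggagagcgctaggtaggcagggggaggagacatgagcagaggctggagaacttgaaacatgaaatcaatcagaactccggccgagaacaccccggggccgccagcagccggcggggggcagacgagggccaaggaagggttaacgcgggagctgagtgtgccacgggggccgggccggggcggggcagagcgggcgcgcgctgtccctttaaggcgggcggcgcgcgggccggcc
Fzd7, chr1:59481897-59482146: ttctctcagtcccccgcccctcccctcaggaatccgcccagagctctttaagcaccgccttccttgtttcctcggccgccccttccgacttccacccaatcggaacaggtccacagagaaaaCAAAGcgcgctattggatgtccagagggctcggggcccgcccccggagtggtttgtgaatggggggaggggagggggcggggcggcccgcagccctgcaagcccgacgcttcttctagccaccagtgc
Tcf7l2, chr19:55741560-55741809: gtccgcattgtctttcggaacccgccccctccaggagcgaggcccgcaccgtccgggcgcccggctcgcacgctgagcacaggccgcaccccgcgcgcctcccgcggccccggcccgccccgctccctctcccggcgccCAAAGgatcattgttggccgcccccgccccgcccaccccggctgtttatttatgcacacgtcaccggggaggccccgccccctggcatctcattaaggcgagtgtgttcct
Tcf7l2 second start, chr19:55895071-55895320: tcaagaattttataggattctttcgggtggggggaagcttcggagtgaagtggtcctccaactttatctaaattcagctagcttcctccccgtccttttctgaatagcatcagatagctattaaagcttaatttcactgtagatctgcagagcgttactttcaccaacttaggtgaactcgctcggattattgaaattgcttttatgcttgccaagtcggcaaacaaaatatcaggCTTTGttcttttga
The fuller motifs CTTTGAT and CTTTGAA, each of which contains the core, were in none of these 4 windows on either strand, beside 7.48% of 32851 windows of the same length over all annotated starts. The core was in the Fzd7 window, 128 bases before the start, and in both Tcf7l2 windows, beside 48.6% of all windows, and was not in the Axin2 window. Wnt3a, on chromosome 11, had 1 window with neither motif; of the other members that passed in a Fam13a-/- comparison, Porcn, Dkk3, Fzd2 and Wnt5a have no window here.

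Axin2 is a scaffold of the destruction complex and the most widely used readout of beta-catenin activity. In wild-type smoke its signal ran from 8.46 to 9.84, with a median of 9.19 (n = 28). In Fam13a-/- smoke it ran from 8.18 to 9.15, with a median of 8.67 (n = 13). The ranges overlapped, but 12 of the 13 knockout arrays were below the wild-type mean and 4 were below the lowest wild-type array. Axin2 fell by 0.55 ± 0.11 (SE), a 1.46-fold lower signal (adjusted p = 0.00066). In air the range was 8.0 to 9.57 in wild type (median 9.15, n = 22) and 8.71 to 9.30 in the knockout (median 8.90, n = 6), a difference of -0.08 ± 0.15 (SE, adjusted p = 0.98). The Fam13a-/- air arrays lay inside the wild-type air range. In the remaining groups Axin2 measured 9.15 ± 0.15 (SD, n = 12) in Hhip+/- air, 9.15 ± 0.26 (SD, n = 14) in Hhip+/- smoke, 9.27 ± 0.41 (SD, n = 8) in NZWLacJ air and 8.78 ± 0.40 (SD, n = 6) in NZWLacJ smoke. Fam13a-/- smoke thus had the lowest of the 8 group means, at 8.60, with NZWLacJ smoke next. Without the arrays that stood apart the difference was -0.63 ± 0.13 (SE, adjusted p = 0.00365), and within them it was -0.36 ± 0.17 (SE, adjusted p = 0.166).

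Fzd7 encodes a Frizzled receptor of the canonical route. Under smoke it ran from 8.80 to 9.80 in wild type (median 9.42, n = 28) and from 8.51 to 9.30 in the knockout (median 9.01, n = 13). All 13 knockout arrays were below the wild-type mean and 2 were below the lowest wild-type array. The fall was 0.40 ± 0.10 (SE), or 1.32-fold (adjusted p = 0.00688). In air the knockout range, 9.03 to 9.55 (median 9.27, n = 6), lay within the wild-type range of 8.51 to 9.89 (median 9.37, n = 22), with a difference of -0.03 ± 0.14 (SE, adjusted p = 0.993). The Hhip+/- means were the highest of the 8 groups, at 9.59 ± 0.19 (SD, n = 12) in air and 9.58 ± 0.26 (SD, n = 14) under smoke. NZWLacJ arrays measured 9.37 ± 0.35 (SD, n = 8) in air and 8.83 ± 0.53 (SD, n = 6) under smoke. Within the arrays that stood apart the knockout difference under smoke was -0.16 ± 0.15 (SE, adjusted p = 0.536), and without them it was -0.50 ± 0.12 (SE, adjusted p = 0.0142).

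Among the nuclear factors, Tcf7l2, a DNA-binding partner of beta-catenin, ran from 8.16 to 9.44 in wild-type smoke (median 8.91, n = 28) and from 7.91 to 9.20 in Fam13a-/- smoke (median 8.53, n = 13). Of the 13 knockout arrays 11 were below the wild-type mean and 3 were below every wild-type array. Tcf7l2 fell by 0.37 ± 0.11 (SE, adjusted p = 0.0291), and it measured -0.42 ± 0.13 (SE, adjusted p = 0.0537) without the arrays that stood apart and -0.37 ± 0.13 (SE, adjusted p = 0.0738) when only the groups compared entered the model. In air the difference was -0.29 ± 0.15 (SE), but did not pass (adjusted p = 0.827); wild type ran from 8.41 to 9.60 (median 8.93) and the knockout from 8.22 to 9.15 (median 8.60). Hhip+/- arrays measured 9.16 ± 0.19 (SD, n = 12) in air and 9.01 ± 0.34 (SD, n = 14) under smoke, and NZWLacJ arrays 8.91 ± 0.27 (SD, n = 8) and 8.72 ± 0.32 (SD, n = 6). A dimmer Tcf7l2 probe, above background on 45 arrays, gave -0.11 ± 0.16 (SE, adjusted p = 0.82) for the same smoke comparison.

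Lef1, another partner of beta-catenin, was above background on 20 arrays in all: 2 of 22 in wild-type air, 6 of 28 in wild-type smoke, 1 of 6 in Fam13a-/- air, 1 of 13 in Fam13a-/- smoke, 5 of 12 and 5 of 14 in Hhip+/- air and smoke, and none in NZWLacJ. It measured 5.01 ± 0.47 (SD, n = 22) in wild-type air, 4.95 ± 0.42 (SD, n = 28) in wild-type smoke, 4.98 ± 0.58 (SD, n = 6) in Fam13a-/- air and 4.88 ± 0.47 (SD, n = 13) in Fam13a-/- smoke. These values lie mostly at background, and no difference is read from them. Hhip+/- arrays had 5.25 ± 0.49 (SD, n = 12) in air and 5.27 ± 0.64 (SD, n = 14) under smoke, while NZWLacJ arrays, none above background, had 4.79 ± 0.23 (SD, n = 8) and 4.77 ± 0.33 (SD, n = 6). Tcf7l1, which mostly represses targets, differed between knockout and wild type by 0.04 ± 0.09 (SE) under smoke. Tle1, a corepressor, differed by 0.13 ± 0.17 (SE).

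Ctnnb1, the central effector, gave no call between Fam13a-/- and wild-type lung. Its signal ran from 10.82 to 12.39 in wild-type air (median 11.98, n = 22) and from 11.57 to 12.14 in Fam13a-/- air (median 11.98, n = 6). Under smoke it ran from 10.57 to 12.33 in wild type (median 11.93, n = 28) and from 10.91 to 12.33 in the knockout (median 11.77, n = 13). Each knockout range lay inside the wild-type range of its exposure. The differences were 0.10 ± 0.23 (SE, 95% interval -0.35 to 0.55) in air and -0.11 ± 0.16 (SE, 95% interval -0.44 to 0.22) under smoke. These intervals cover RNA level only, since beta-catenin is regulated mainly at the protein. A second probe gave 0.15 ± 0.23 (SE) and -0.05 ± 0.17 (SE). Much of the spread went with the sets of arrays: in wild-type smoke, the 8 arrays that stood apart had a mean of 11.12 and the other 20 a mean of 12.03.

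Porcn encodes the enzyme that attaches the lipid a Wnt ligand needs for secretion. It ran from 8.73 to 9.82 in wild-type smoke (median 9.09, n = 28) and from 9.01 to 10.05 in Fam13a-/- smoke (median 9.42, n = 13). Of the 13 knockout arrays 11 were above the wild-type mean and 3 were above every wild-type array. Porcn rose by 0.35 ± 0.10 (SE), or 1.27-fold (adjusted p = 0.0181), with a second probe at 0.28 ± 0.11 (SE, adjusted p = 0.129). In air the knockout ran from 8.72 to 9.79 (median 9.25, n = 6) against 8.53 to 9.53 (median 8.91, n = 22) in wild type, a difference of 0.26 ± 0.14 (SE, adjusted p = 0.826). Over the mean of air and smoke Porcn was the only member to pass, at 0.31 ± 0.08 (SE, adjusted p = 0.0496), which is 3.33% of the members beside 0.837% of all genes (0.564% higher), and that call was lost in 12 alternative analyses. Means in the remaining groups were 8.86 ± 0.20 (SD, n = 12) in Hhip+/- air, 8.99 ± 0.26 (SD, n = 14) in Hhip+/- smoke, 9.57 ± 0.37 (SD, n = 8) in NZWLacJ air and 9.75 ± 0.32 (SD, n = 6) in NZWLacJ smoke. Without the arrays that stood apart the smoke difference was 0.30 ± 0.11 (SE, adjusted p = 0.097).

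**Figure D2:**
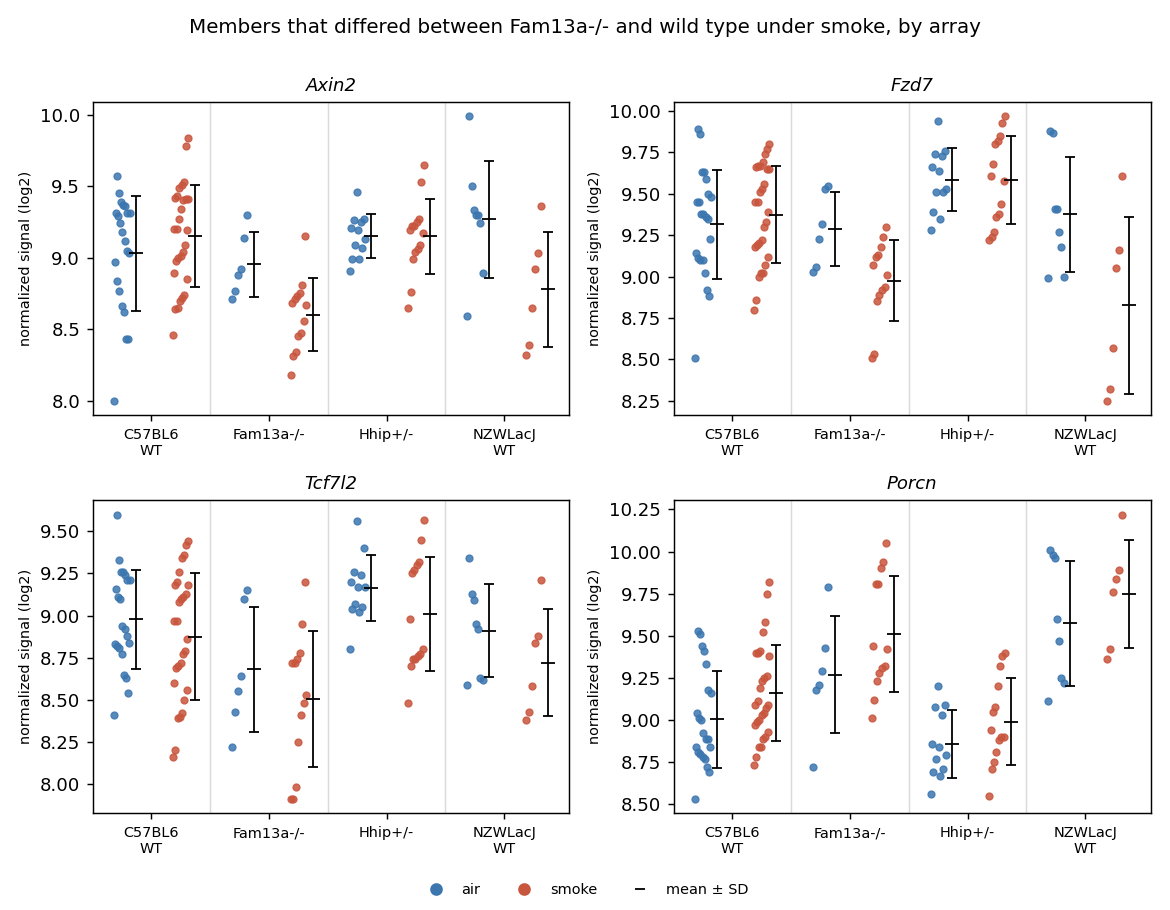
Normalized signal (log2) of Axin2, Fzd7, Tcf7l2 and Porcn on every array, in air (blue) and smoke (red) for each strain or genotype; black marks are group means with SD. In Fam13a-/- smoke the means of Axin2, Fzd7 and Tcf7l2 lie at 8.60, 8.98 and 8.51 and that of Porcn at 9.51, with ranges that overlap wild-type smoke in each panel.

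The 22 members not yet described gave no call in the comparison of knockout and wild type. Among the ligands, Wnt2, a signal of lung mesenchyme, differed under smoke by -0.41 ± 0.21 (SE, adjusted p = 0.286), Wnt5a, a ligand best known for beta-catenin-independent signalling, by 0.00 ± 0.11 (SE), and Wnt4 and Wnt7b by 0.24 ± 0.12 (SE) and 0.28 ± 0.20 (SE). Wnt3a was close to the threshold, at -0.42 ± 0.14 (SE, adjusted p = 0.0513). Of the 8 receptors and co-receptors only Fzd7 passed; Fzd2 measured -0.38 ± 0.17 (SE, adjusted p = 0.196), and Lrp5 and Lrp6 were both at -0.13. Of all 30 members, 18 lay below 0 under smoke and 12 above, beside 54.8% of all genes below 0. Of the 6 tested ligands and Porcn, 4 lay above 0. The 5 tested relay and destruction complex members all lay below 0, and none passed. They ran from -0.11 for Ctnnb1 to -0.19 ± 0.20 (SE) for Gsk3b, with Dvl1 at -0.17 ± 0.06 (SE, adjusted p = 0.107). Of the target genes, Ccnd1, a cell-cycle cyclin, differed by 0.07 ± 0.08 (SE) and Nkd1, a Dishevelled inhibitor, by -0.09 ± 0.17 (SE). Neither passed.

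Of 93 other genes of the pathway, 53 were tested, and 0 passed in air and 2 under smoke, both lower: Wnt7a, a ligand, by -0.53 ± 0.16 (SE, adjusted p = 0.03) and Tnfrsf19, a receptor gene reported as a beta-catenin target, by -0.46 ± 0.13 (SE, adjusted p = 0.0182). That is 3.77% of the list, beside 6.19% of all genes. Their median under smoke was -0.09, beside -0.02 for all genes. In all, 38 of the 53 genes (71.7%) had a difference below 0, including those that did not pass, beside 54.8% of all genes. The 7 tested ligands and carriers of that list all lay below 0. Every other role in the list had genes on both sides, and 2 of 3 secreted antagonists lay above 0.

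Markers of cell types moved in the same comparison. Of 11 fibroblast and pericyte markers, 3 fell under smoke in the knockout, Mfap4 (-0.84 ± 0.16, SE), Pdgfrb (-0.56 ± 0.16, SE) and Tcf21 (-0.44 ± 0.14, SE), and the median was -0.30. Their mean signal ran from 8.56 to 9.62 in wild-type smoke (9.26 ± 0.30, SD, n = 28). In Fam13a-/- smoke it ran from 8.69 to 9.32 (8.94 ± 0.16, SD, n = 13). Endothelial markers fell for 3 of 10 (median -0.24; 9.82 to 10.49 in wild type and 9.51 to 10.15 in the knockout), and club and ciliated cell markers rose for 5 of 8 (median 0.44; 9.03 to 10.21 and 9.40 to 10.62). Heart muscle markers rose for 2 of 8 (median 0.89; 5.87 to 10.58 and 6.60 to 10.79), and adipocyte markers for 2 of 3 (median 0.60). Type 2 and type 1 cell markers had 0 of 8 and 0 of 5 that passed. Of 6 smooth muscle markers Mylk fell (-0.50 ± 0.15, SE, adjusted p = 0.0218) and the median was 0.05. Kdr (endothelial), Ryr2 (heart muscle) and Plin1, Fabp4 and Retn (adipocyte) had no kept probe. The part of these cell types in the differences of Axin2, Fzd7, Tcf7l2 and Porcn was not tested.

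Within the 50 wild-type arrays alone, after removing the air and smoke means, the same 4 members varied together. Pairs of other members or genes were not compared, so whether such values are common in these arrays is not known. Axin2 and Fzd7 had a Pearson r of 0.78 and a Spearman rho of 0.81, Fzd7 and Tcf7l2 0.70 and 0.73, and Axin2 and Tcf7l2 0.65 and 0.72, each with p = 1e-05, the smallest that 100000 permutations can give. Porcn ran against all 3, with r of -0.55, -0.58 and -0.61 and rho of -0.53, -0.55 and -0.61 for Axin2, Fzd7 and Tcf7l2 (permutation p of 9e-05 at most). Without the 2 arrays farthest from the median, r was 0.78, 0.66 and 0.66 for the first 3 pairs and -0.54, -0.56 and -0.60 for Porcn. In the 14 arrays that stood apart, r ran from 0.70 to 0.85 among the 3 genes and from -0.92 to -0.68 with Porcn, and in the other 36 from 0.58 to 0.80 and from -0.54 to -0.51.

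In the same arrays the mean of the fibroblast and pericyte markers correlated with Axin2 (r = 0.62, rho = 0.61), Fzd7 (r = 0.63, rho = 0.60) and Tcf7l2 (r = 0.56, rho = 0.55), and against Porcn (r = -0.70, rho = -0.64), each with a permutation p of 7e-05 or less. Within sets, r for Axin2 was 0.86 in the 14 arrays and 0.67 in the 36, and for Porcn -0.87 and -0.64. The endothelial list gave r of 0.52, 0.47, 0.23 and -0.44 for Axin2, Fzd7, Tcf7l2 and Porcn, and the heart muscle list 0.01, 0.01, -0.15 and 0.05. For the club and ciliated cell list r was -0.36, -0.24, -0.28 and 0.24, and rho -0.41, -0.20, -0.28 and 0.32. In this family of 22 pairs, Benjamini-Hochberg adjusted permutation p-values were at most 0.000165 for the member pairs and the fibroblast and pericyte list. They were at least 0.345 for the heart muscle list. For r they were 0.00032, 0.00099, 0.126 and 0.00259 with the endothelial list. With the club and ciliated cell list they were 0.0151, 0.122, 0.0732 and 0.117. The plot against the marker list shows the knockout arrays beside the wild-type ones, and the part of these markers was not tested.

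**Figure D3:**
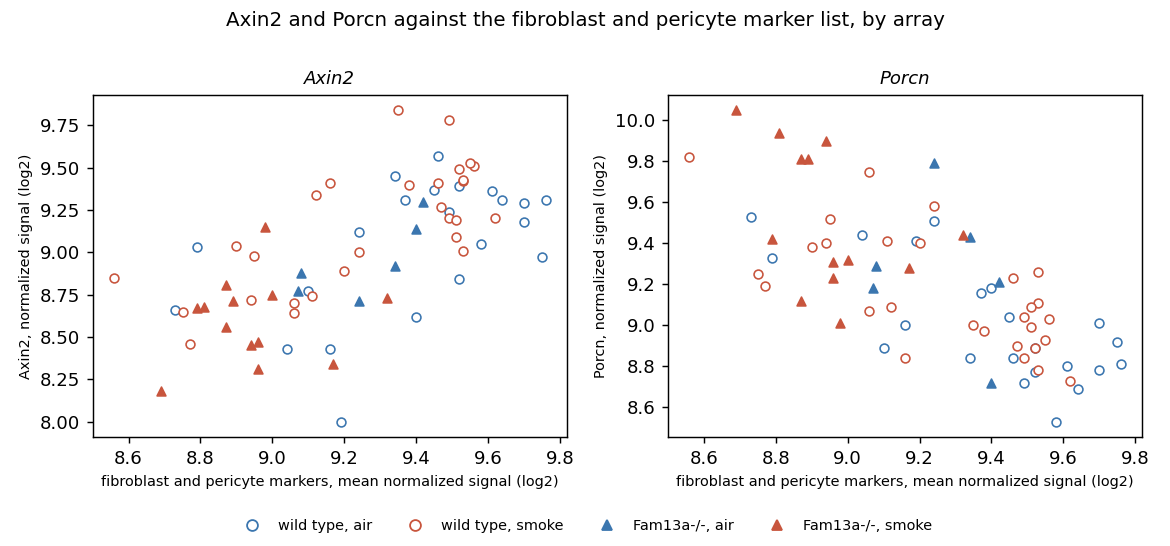
Axin2 (left) and Porcn (right) against the mean normalized signal of 11 fibroblast and pericyte markers, all on the log2 scale, for C57BL6 wild-type (circles) and Fam13a-/- (triangles) arrays in air (blue) and smoke (red). The Fam13a-/- smoke arrays lie between 8.69 and 9.32 on the marker axis, within the wild-type smoke range of 8.56 to 9.62. Their mean there is lower, at 8.94 against 9.26 in wild-type smoke.

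Smoke against air within Fam13a-/- lung changed 2 of the 30 members, both lower under smoke: Wnt3a, a canonical ligand, and Dkk3, a divergent member of the Dickkopf family of secreted antagonists. That is 6.67% of the members, beside 2.18% of all genes (0.864% lower). Wnt3a ran from 8.88 to 9.65 in air (median 9.22, n = 6) and from 7.54 to 9.28 under smoke (median 8.46, n = 13), with 11 of the 13 smoke arrays below every air array. It fell by 0.73 ± 0.20 (SE, adjusted p = 0.0343). Dkk3 ran from 10.82 to 11.32 in air (median 11.13) and from 10.03 to 10.92 under smoke (median 10.47), with 12 of 13 smoke arrays below every air array. It fell by 0.61 ± 0.17 (SE, adjusted p = 0.0344), and a second probe gave -0.64 ± 0.18 (SE, adjusted p = 0.039). Both calls rest on 6 air arrays and ended when arrays were scaled to equal medians (adjusted p = 0.245 for each): leaving out replicate 1, 2, 5 or 6 of the air group ended both, leaving out replicate 3 ended that of Wnt3a, and the adjusted p then reached 0.153 for Wnt3a and 0.132 for Dkk3. Without the arrays that stood apart both still passed, at -0.82 ± 0.21 (SE) and -0.57 ± 0.15 (SE). Markers also moved between smoke and air in the knockout: 3 of 10 endothelial (median -0.35) and 2 of 11 fibroblast and pericyte markers (median -0.36) fell, and 1 of 8 club and ciliated cell markers rose (median 0.46). No heart muscle marker passed (0 of 8, median 0.99). Their part was not tested.

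In wild-type C57BL6 lung, Wnt3a measured 8.73 ± 0.38 (SD, n = 22) in air and 8.91 ± 0.40 (SD, n = 28) under smoke, and Dkk3 10.84 ± 0.36 (SD) and 10.78 ± 0.44 (SD). Neither passed there. Hhip+/- arrays had 8.99 ± 0.51 (SD, n = 12) and 9.04 ± 0.45 (SD, n = 14) for Wnt3a, and 11.10 ± 0.24 (SD) and 10.97 ± 0.20 (SD) for Dkk3. NZWLacJ arrays had 9.28 ± 0.30 (SD, n = 8) and 8.88 ± 0.56 (SD, n = 6) for Wnt3a, and 10.96 ± 0.42 (SD) and 10.99 ± 0.29 (SD) for Dkk3. In Fam13a-/- air, all 6 arrays were above the wild-type air mean for Wnt3a, a difference of 0.49 ± 0.19 (SE) that did not pass (adjusted p = 0.663).

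**Figure D4:**
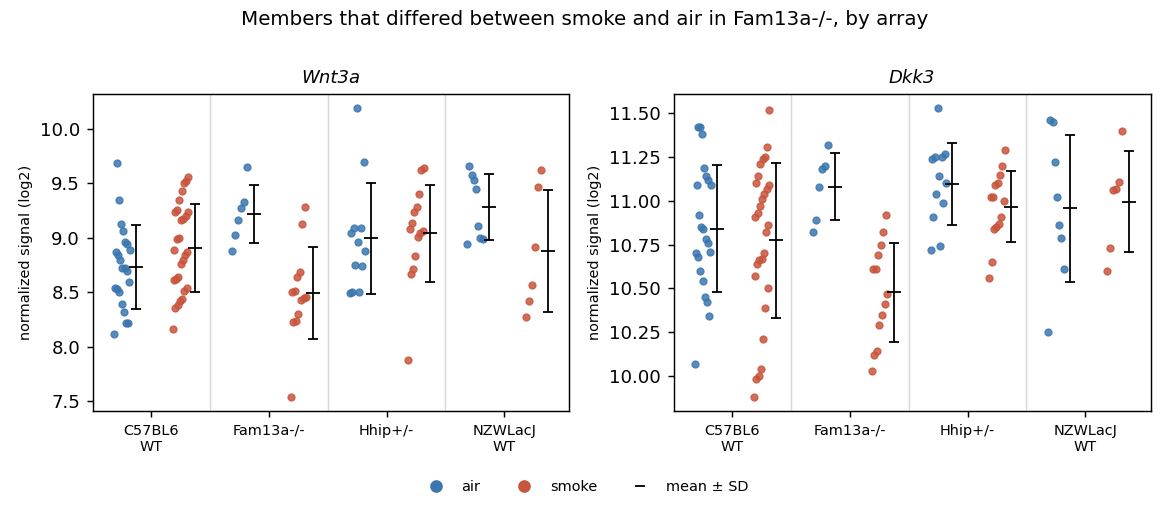
Normalized signal (log2) of Wnt3a and Dkk3 on every array, in air (blue) and smoke (red) by strain or genotype; black marks are group means with SD. In Fam13a-/- lung the smoke means, 8.49 for Wnt3a and 10.48 for Dkk3, lie below the air means of 9.22 and 11.08.

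Whether smoke acted differently in the knockout was tested as the difference of the smoke effects. No member passed (0 of 30, beside 0.0529% of all genes), and 4 had an unadjusted p below 0.05, Wnt3a, Fzd7, Dkk3 and Axin2, beside 12.2% of all genes. The difference was -0.91 ± 0.24 (SE, adjusted p = 0.0913) for Wnt3a, -0.54 ± 0.20 (SE, adjusted p = 0.213) for Dkk3, -0.47 ± 0.19 (SE, adjusted p = 0.268) for Axin2 and -0.37 ± 0.17 (SE, adjusted p = 0.363) for Fzd7. The calls under smoke alone therefore do not show that the knockout difference depends on smoke. Smoke against air gave 0 of 30 members in wild-type C57BL6 (0.952% of all genes), Hhip+/- (0.247%) and NZWLacJ lung (0.987%), with 2, 3 and 5 members at an unadjusted p below 0.05, beside 8.19%, 5.82% and 13.3% of all genes. Among those was Ccnd1 in wild type at -0.15 ± 0.07 (SE), and in NZWLacJ lung Fzd7 at -0.55 ± 0.16 (SE, adjusted p = 0.0787).

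Fam13a-/- was also set against Hhip+/- lung, over the mean of air and smoke. The difference uses no wild-type arrays, but its SE and p-value share the spread of all 8 groups. Here 6 of the 30 members passed, or 1 in 5, beside 5.04% of all genes (3.08% higher and 1.97% lower). Porcn was higher by 0.47 ± 0.09 (SE, adjusted p = 0.000699), and 5 members were lower. Fzd2, a Frizzled receptor, fell by 0.80 ± 0.16 (SE, adjusted p = 0.000786), a 1.74-fold lower signal, Fzd7 by 0.45 ± 0.10 (SE, adjusted p = 0.00129), Wnt5a by 0.48 ± 0.10 (SE, adjusted p = 0.00142), Tcf7l2 by 0.49 ± 0.10 (SE, adjusted p = 0.00158) and Axin2 by 0.37 ± 0.10 (SE, adjusted p = 0.0187). Of the 53 other pathway genes 4 passed, all lower: Wnt7a, the ligand amplifier Rspo3 (-0.49 ± 0.12, SE), the co-receptor Ryk (-0.31 ± 0.10, SE) and Tnfrsf19. Fibroblast and pericyte markers fell for 3 of 11, with a median of -0.38, and Mylk was the 1 of 6 smooth muscle markers that fell (-0.59 ± 0.14, SE). Club and ciliated cell markers rose for 3 of 8 (median 0.32) and adipocyte markers for 2 of 3 (median 0.50). Heart muscle markers had a median of 0.97, with 8 of 8 above 0 and none past the threshold. The part of these cell types was not tested. Without the arrays that stood apart 5 members passed, beside 2.3% of all genes. Under scaling to equal medians 1 did (0 higher and 1 lower), Fzd2, beside 1.86%. Only 1 Fam13a-/- air array stood apart, so no count within that set is given.

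Fzd2 and Wnt5a were also higher in Hhip+/- than in wild-type lung. Fzd2 ran from 6.87 to 8.31 in Hhip+/- smoke (median 7.51, n = 14) and from 5.99 to 8.02 in wild-type smoke (median 7.17, n = 28), with 13 of 14 Hhip+/- arrays above the wild-type mean; it rose by 0.57 ± 0.17 (SE, adjusted p = 0.0468). Wnt5a ran from 8.15 to 9.02 in Hhip+/- smoke (median 8.47) and from 7.29 to 8.62 in wild-type smoke (median 8.08), with all 14 arrays above the wild-type mean; it rose by 0.39 ± 0.11 (SE, adjusted p = 0.0284). These were the 2 of 30 members that passed between Hhip+/- and wild type under smoke, 6.67% beside 1.87% of all genes (0.978% higher), and 0 passed in air, beside 0.0617%. In air 6 members had an unadjusted p below 0.05, beside 8.56% of all genes, Fzd2 among them at 0.56 ± 0.18 (SE, adjusted p = 0.241). Wnt7a, of the other pathway genes, also rose under smoke, by 0.69 ± 0.16 (SE, adjusted p = 0.00628). Fzd2 measured 7.09 ± 0.48 (SD, n = 22) in wild-type air, 7.65 ± 0.39 (SD, n = 12) in Hhip+/- air, 7.01 ± 0.22 (SD, n = 6) in Fam13a-/- air and 6.72 ± 0.44 (SD, n = 13) in Fam13a-/- smoke. NZWLacJ arrays had 7.01 ± 0.80 (SD, n = 8) in air and 6.39 ± 0.79 (SD, n = 6) under smoke. Wnt5a measured 8.02 ± 0.28 (SD), 8.26 ± 0.29 (SD), 7.69 ± 0.14 (SD) and 8.14 ± 0.39 (SD) in the first 4 of these groups, and 7.88 ± 0.53 (SD) and 8.0 ± 0.22 (SD) on the NZWLacJ arrays. Both calls ended without the 2 arrays of low detected share (adjusted p = 0.0891 for Fzd2 and 0.0603 for Wnt5a) and under scaling to equal medians, and without the arrays that stood apart only Wnt5a passed. None of the 10 marker lists had a marker that passed between Hhip+/- and wild type under smoke, with medians from -0.48 for heart muscle to 0.32 for B and T cells. Both comparisons use the same Hhip+/- arrays, so their values are not independent.

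The strains differed more widely. Between NZWLacJ and C57BL6 wild type, 12 of 30 members passed in air (10 higher and 2 lower in NZWLacJ), beside 43.3% of all genes (24.8% higher and 18.5% lower), and 16 passed under smoke (9 higher and 7 lower), beside 50.7% (25.8% higher and 24.9% lower). Under scaling to equal medians the smoke split was 4 higher and 7 lower, beside 36.9% of all genes called. These shares are near the background and are no result about the pathway. Without the pair of arrays of doubtful strain, 14 and 18 passed, beside 46.7% and 56.9% of all genes. Higher in both exposures were the ligands Wnt2 (0.96 ± 0.26 in air and 1.58 ± 0.28 under smoke, SE) and Wnt7b (0.87 ± 0.24 and 0.84 ± 0.26), Porcn (0.57 ± 0.12 and 0.59 ± 0.13), Fzd1, Fzd6 (0.51 ± 0.12 and 0.57 ± 0.13), the co-receptor Lrp6 (1.44 ± 0.25 and 1.15 ± 0.27) and Tle1. Lower in both were Fzd4, a receptor of endothelium (-0.69 ± 0.22 and -0.57 ± 0.24), and Nkd1 (-0.51 ± 0.21 and -0.76 ± 0.23). Without the arrays of doubtful strain each of these still passed in both exposures, with larger differences: in air and under smoke Wnt2 was at 1.17 and 1.99, Wnt7b at 0.89 and 1.04, Porcn at 0.62 and 0.67, Fzd6 at 0.62 and 0.68, Lrp6 at 1.68 and 1.28, Fzd4 at -0.82 and -0.79 and Nkd1 at -0.63 and -1.04. All these values are from the brightest probe of each gene. Of 14 further probes of 13 members, only 8 had the same sign as the main probe and 6 had the opposite, in each exposure. Wnt7b, Porcn, Tle1 and Fzd4 are among the members with a further probe, so their strain differences rest on the choice of probe. Markers moved widely between the strains: 6 of 8 type 2 cell markers were lower in air (median -1.01) and 5 under smoke (median -0.86), and 4 of 5 alveolar macrophage markers were lower in each (medians -0.84 and -1.60). Smooth muscle markers were higher for 5 of 6 in each (medians 0.61 and 0.56), and heart muscle markers for 3 and 6 of 8 (medians 1.10 and 1.69). Their part in the strain differences was not tested. Lrp6 was above background on 91 arrays and ran from 5.12 to 6.83 in C57BL6 air (n = 22) and from 5.59 to 8.17 in NZWLacJ air (n = 8), where 6 of 8 arrays were above every C57BL6 array. Of the 53 other pathway genes, 21 passed in air and 22 under smoke, led in both by Sp5, a beta-catenin target that was lower (-1.63 ± 0.19 and -1.72 ± 0.21, SE), and Chd8, a chromatin remodeller that was higher (0.61 ± 0.07 and 0.66 ± 0.08, SE).

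Ctnnb1 and Fzd1 were high on 6 NZWLacJ arrays with consecutive sample numbers, 2 of air and 4 of smoke, which were chosen after their values were seen. Ctnnb1 ran from 12.95 to 13.27 on those 6 and from 11.09 to 12.20 on the other 6 of undoubted strain. Fzd1 ran from 7.16 to 8.11 on the 6 and from 4.45 to 5.60 on the others, where C57BL6 air ran from 4.42 to 6.20. The ranges did not overlap for either gene, which is a description of arrays chosen by these values. Ctnnb1 was 0.79 ± 0.22 (SE, adjusted p = 0.0018) higher in NZWLacJ smoke than in C57BL6 smoke, or 0.98 ± 0.23 (SE) without the arrays of doubtful strain. Fzd1 was 1.39 ± 0.29 (SE) higher under smoke and 0.68 ± 0.26 (SE) in air (1.77 and 0.79 without the arrays of doubtful strain), against C57BL6 groups in which it was above background on 13 of 28 smoke and 5 of 22 air arrays, so these sizes are uncertain. With the 6 arrays as a term in the model, Ctnnb1 was at -0.28 under smoke and Fzd1 at -0.46 under smoke and -0.01 in air. A term for arrays chosen by these values takes up their difference by construction, so this is a description and shows no cause. A single member passed under smoke with that term, and 6 did when the arrays of doubtful strain were left out as well, beside 12.7% and 29.7% of all genes. Exposure and the 6 arrays are partly confounded, with 4 of 6 under smoke.

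**Figure D5:**
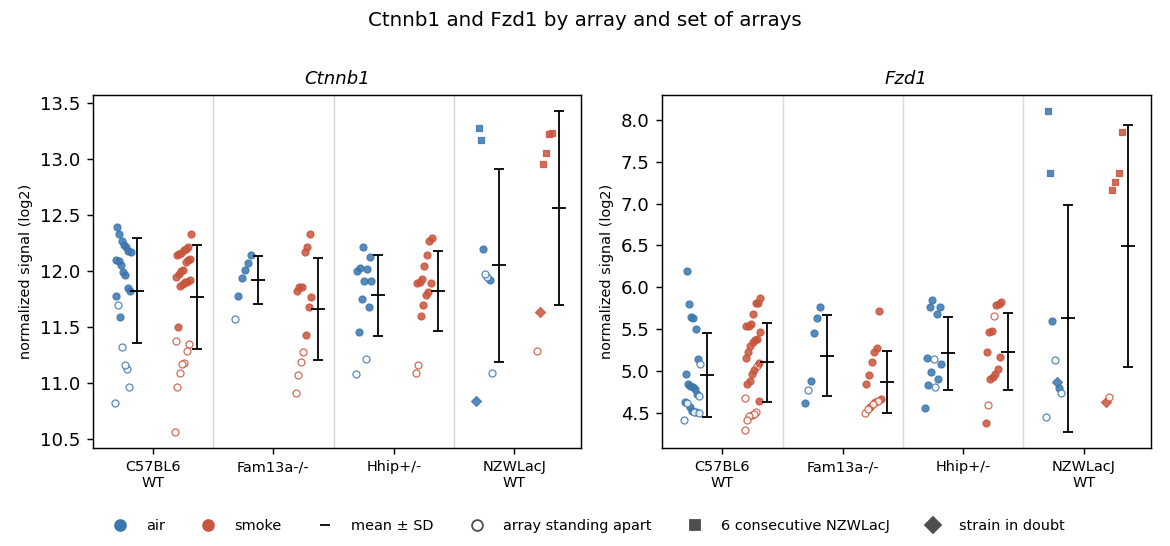
Normalized signal (log2) of Ctnnb1 (left) and Fzd1 (right) on every array, in air (blue) and smoke (red); open circles are arrays that stood apart, squares the 6 NZWLacJ arrays with consecutive numbers, diamonds the arrays of doubtful strain, and black marks group means with SD. The squares lie between 12.95 and 13.27 for Ctnnb1 and between 7.16 and 8.11 for Fzd1, above every other array of either gene.

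The arrays that stood apart differed from the others in some members. With group means removed, Ctnnb1, Wnt2, Fzd1 and Tle1 were lower on the 27 arrays that stood apart by more than 0.5, at -0.89, -0.83, -0.70 and -0.53, which is 4 of 30 members, and 10.5% of all genes moved by as much in either direction. With the set as a term in the model the 4 members called between knockout and wild type under smoke all passed, with adjusted p from 3e-04 for Axin2 to 0.0179 for Tcf7l2, and Wnt3a (adjusted p = 0.03) and Dkk3 (adjusted p = 0.0393) passed too. The set was itself drawn from the residuals of these data, so the term lowers the errors by construction and these calls are no independent support.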

How the data were processed

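Lung RNA was read on single-colour bead arrays. The authors deposited intensity values for 25697 probes that, per the file headers and the values, were not normalized between arrays. A detection p-value per probe and array was deposited beside them. Normalized log2 values were deposited too, whose method and background correction are not given in the sources; each column correlated best with its own array (lowest r across kept probes 0.967, column medians 7.21 to 7.22). These served only as an alternative.

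Intensities were background-corrected by normexp from the detection p-values with an offset of 16, quantile-normalized and put on the log2 scale with neqc (limma 3.58.1, R 4.3.3; files were read with the data.table package, version 1.17.8). The 15363 probes detected (p below 0.01) on 6 or more arrays, as many as the smallest group holds, were kept, and the brightest kept probe stood for a gene. Of all probes 23978 have 1 platform symbol and 1719 none; 23962 symbols were updated through the gene identifier, 9 through the accession and 7 were kept. The 13 members with several kept probes had 14 further probes, of which 11 had the same sign as the main one for knockout minus wild type under smoke and 3 the opposite. For NZWLacJ minus C57BL6 these counts were 8 and 6 in air and again under smoke.

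All 8 groups entered 1 limma model (lmFit, eBayes, 101 residual degrees of freedom) with 13 two-sided contrasts, adjusted by Benjamini-Hochberg over 11346 genes at 0.05. The number of arrays limits the precision. The fit was tested on simulated data with independent noise for each gene. Those data lack the axis of variation that these arrays share, so the test does not cover its effect on the calls. Correlations used permutation tests. Alternatives were the authors' values, median scaling, no background correction, other filters, all probes, array weights, trend and robust options, only the groups compared, and leaving out arrays; those on arrays that stood apart and on consecutive arrays were chosen after seeing the data. The 27 arrays apart lay beyond the widest gap away from both ends of the first principal component of the residuals (21% of their variance). That gap ran from 0.0309 to 0.0569. Wider ones lay at the lower end, from -0.179 to -0.15, and at the upper end, from 0.219 to 0.299. The cut is therefore not a clear separation. The 2 arrays of low detected share were below 43.4% of probes. Members and gene lists were chosen with earlier results of these data known. Genes described over all groups were members called in a knockout comparison plus Ctnnb1, Axin2 and Lef1; at most 6 other pathway genes and 4 markers per list were named a comparison. Promoter sequences are from RefSeq.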

Additional observations from a re-analysis of the deposited data

Results flagged for a closer look

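In 2 of 90 pairs of a member and a group of 6 to 10 arrays, 1 array lay far from the rest by Dixon's test; chance alone flags about 1 in 20 pairs, or 4.5 of 90. Wif1, a secreted Wnt antagonist, measured 6.28 on replicate 5 of Fam13a-/- air, where the other 5 arrays ran from 6.86 to 7.11 (gap over range 0.70, n = 6). Btrc, the ligase that marks beta-catenin, measured 9.34 on replicate 6 of NZWLacJ smoke, where the others ran from 8.46 to 8.74 (gap over range 0.68, n = 6). Neither gene was called in a comparison of its group. No member's smoke effect passed a test of the difference between Fam13a-/- and wild type.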

How the results depend on the processing

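Of 62 results on single genes, 1029 values were computed under alternatives: 861 kept direction and side of the threshold, 20 changed sign and passed in neither setting, 126 kept direction and no longer passed, 12 kept direction and now passed, and 10 were called values that changed sign. Of 208 counts of called members, 163 stayed within 1.5 times. Cause was not tested for any of the changes below. With array weights, members called were 1 for knockout minus wild type in air (from 0), 8 under smoke (from 4), 4 over the mean (from 1), 12 for knockout minus Hhip+/- (from 6), 5 for smoke in the knockout (from 2), 1 for smoke in Hhip+/-, 6 for smoke in NZWLacJ, 2 for the difference of smoke effects and 1 for Hhip+/- minus wild type in air (each from 0). All genes then called were 2.83%, 9.1%, 5.75%, 14.8%, 14.4%, 1.62%, 16.4%, 6.4% and 2.43% in the same order. With median scaling they were 1 for knockout minus wild type under smoke, 0 over the mean, 1 for knockout minus Hhip+/-, 0 for smoke in the knockout and 0 for Hhip+/- minus wild type under smoke, beside 1.45%, 0.00881%, 1.86%, 0.353% and 0.494% of all genes; under it the median of all genes was -0.17 for the difference of smoke effects, -0.12 for smoke in the knockout and in NZWLacJ and -0.11 for Hhip+/- under smoke. The single call over the mean (Porcn) was 0 with every kept probe (0.631% of all probes) and without the filter (0.377% of all genes). It was also 0 with only the groups compared (1.05%), without arrays of low detected share (1.06%) and without the arrays that stood apart (0.0441%). With the set of arrays as a term 2 members passed (1.67%). Smoke in the knockout gave 0 without the filter (0.978%). Within the arrays that stood apart, comparisons that use Fam13a-/- air rest on 1 array of that group, so no counts are given for them. The 2 calls of Hhip+/- minus wild type under smoke were 1 with every kept probe, 1 without the filter, 1 within and 1 without the arrays that stood apart, and 0 without arrays of low detected share. All genes or probes then called were 1.53%, 0.863%, 4.67%, 0.837% and 1.35% in the same order. Leaving out each Fam13a-/- air array in turn gave 0 to 2 calls over the mean and 0 to 2 for smoke in the knockout. All genes then called ran from 0.229% to 1.01% and from 0.599% to 2.56%. Without the arrays that stood apart, NZWLacJ minus C57BL6 in air gave 6 (from 12, beside 30.1% of all genes) and smoke in NZWLacJ 1 (0.82%). Only 1 NZWLacJ smoke array stood apart, so no count within that set is given for NZWLacJ under smoke. With the consecutive NZWLacJ arrays as a term, NZWLacJ minus C57BL6 under smoke gave 1 (from 16, beside 12.7%). It gave 6 when arrays of doubtful strain were also left out (29.7%).

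Called values changed direction only in NZWLacJ comparisons. With the consecutive arrays as a term, without and with removal of the arrays of doubtful strain, Fzd1 was at -0.01 and 0.00 in air and at -0.46 and -0.45 under smoke, Ctnnb1 at -0.28 and -0.26 under smoke, and Tcf7l1 at 0.04 and 0.08 under smoke. Within the arrays that stood apart, under smoke, Axin2 was at 0.16 and Tcf7l1 at 0.00, with only 1 NZWLacJ smoke array. No paired analysis was possible because the labels give no replicate numbers shared between groups. Dim members have limited precision: Sfrp2 was above background on 9 arrays, Lef1 on 20 and Fzd1 on 39.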
